A study of Homo sapiens with 9 samples.

Results

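FOXD3, USP44, PRDM14, DPPA2, DPPA4, L1TD1, POLR3G, LIN28A, LIN28B and PODXL are genes commonly read as markers of the pluripotent state besides its core factors POU5F1, NANOG and SOX2. They were found on the arrays by gene symbol, and all 10 had a probe set that carries no other symbol, among 18417 genes measured that way. They occupied 11 of 33297 probe sets, since LIN28A had 2. The list was drawn up from the genes' known roles and not from a threshold on these values. Earlier results of these data were known when the list was drawn up.

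Of the 10 genes 8 were lower in differentiation medium than in untreated cells, beside 15.7% of all genes. In cells given doxycycline along with that medium, PRDM14 and PODXL lay near their untreated level, USP44 and POLR3G were 5.26-fold and 4.38-fold below it, and L1TD1, which did not pass the test in the medium alone, was 2.07-fold lower than in the medium alone.

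The cells were H9, an established human embryonic stem cell line, in a derivative that carries TCF7L1 as a transgene switched on by doxycycline (Dox). The 3 groups of 3 arrays each were H9-TCF7L1 cells without treatment in mTeSR1, a medium that maintains pluripotency; the same cells after 48 h in PS medium, which drives primitive streak-like differentiation; and cells given PS medium and 1 ug/ml Dox together for 48 h. All groups carry the transgene, and cells with Dox in mTeSR1, or with Dox and no transgene, were not analysed here. Whether the line is 1 clone, and which promoter drives the transgene, is not given in the sources used here.

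Pluripotent stem cells keep their identity through a network of transcription factors, and around it lie genes that are switched off at different speeds on differentiation. FOXD3 and PRDM14 are DNA-binding regulators, USP44 is a deubiquitinase that restrains the anaphase-promoting complex, and DPPA2 and DPPA4 are neighbouring SAP-domain genes that act together on chromatin. LIN28A and LIN28B are RNA-binding proteins that block maturation of the let-7 microRNAs, L1TD1 is an RNA-binding protein derived from a LINE-1 retrotransposon, POLR3G is a subunit of RNA polymerase III that its paralog POLR3GL replaces in differentiated cells, and PODXL is the sialomucin that carries surface epitopes used to recognise human pluripotent cells. TCF7L1 is a TCF/LEF factor that acts mainly as a repressor of Wnt and pluripotency targets in stem cells.

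Sequence windows of 250 bases before to 50 bases after the annotated start, from RefSeq on GRCh38.p14, were at hand for 5 of the 10 genes (FOXD3, DPPA2, DPPA4, L1TD1 and LIN28B). The 4 with the largest response to Dox are shown because TCF7L1 is itself a DNA-binding factor. They are written 5′ to 3′ on the gene's strand, and capitals mark a match to any of 3 motifs.

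L1TD1, chr1:62194599-62194898, + strand: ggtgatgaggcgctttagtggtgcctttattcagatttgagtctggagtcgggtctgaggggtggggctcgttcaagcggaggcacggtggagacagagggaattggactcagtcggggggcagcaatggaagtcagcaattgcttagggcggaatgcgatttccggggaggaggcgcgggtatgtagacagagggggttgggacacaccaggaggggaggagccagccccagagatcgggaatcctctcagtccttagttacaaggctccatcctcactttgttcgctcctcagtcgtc

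FOXD3, chr1:63322317-63322616, + strand: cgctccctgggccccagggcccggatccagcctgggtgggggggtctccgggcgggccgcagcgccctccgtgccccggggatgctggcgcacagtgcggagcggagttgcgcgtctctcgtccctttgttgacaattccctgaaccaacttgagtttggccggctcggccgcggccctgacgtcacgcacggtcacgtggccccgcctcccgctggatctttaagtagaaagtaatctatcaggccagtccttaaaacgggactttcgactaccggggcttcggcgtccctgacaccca

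DPPA2, chr3:109316468-109316767, - strand: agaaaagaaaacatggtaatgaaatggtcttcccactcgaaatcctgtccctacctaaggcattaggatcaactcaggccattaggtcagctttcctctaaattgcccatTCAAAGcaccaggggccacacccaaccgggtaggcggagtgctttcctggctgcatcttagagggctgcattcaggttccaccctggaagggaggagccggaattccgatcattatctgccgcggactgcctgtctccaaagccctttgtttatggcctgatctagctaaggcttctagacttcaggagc

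DPPA4, chr3:109337497-109337796, - strand: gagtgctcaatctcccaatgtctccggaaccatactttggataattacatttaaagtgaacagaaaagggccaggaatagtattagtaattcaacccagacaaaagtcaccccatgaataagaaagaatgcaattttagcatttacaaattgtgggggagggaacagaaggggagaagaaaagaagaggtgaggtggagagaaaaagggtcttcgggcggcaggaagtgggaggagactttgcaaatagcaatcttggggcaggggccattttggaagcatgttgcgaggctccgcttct

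The motifs searched on both strands were CTTTGA (a form of the core of TCF/LEF sites), ATGCAAAT (octamer) and CATTGT (core of SOX sites). The only match in these 4 windows was CTTTGA in DPPA2, as the reverse complement TCAAAG, 140 bases before the start. The form CTTTGT was not searched, and its letters stand unmarked in the windows of L1TD1, FOXD3 and DPPA2. Of 35116 windows of this length 12.9% hold CTTTGA, 1.77% the octamer and 10.8% the SOX core. One of the 2 windows of LIN28B held a SOX core. The windows of DPPA4 and LIN28B lie inside the listed gene, whose 5′ end is at base 109339636 and 104937026. No window at those ends was searched for these genes. A match of letters is a description and not a bound site.

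Values below are intensities as deposited, in replicate order 1, 2 and 3, on a linear scale. Array medians ran from 200.4 to 216 over the 9 arrays. Differences are on the scale log2(intensity + 16) after quantile normalization, each with its standard error (SE) from a limma fit of all 9 arrays (n = 3 per group). A gene is called when its p, adjusted by Benjamini-Hochberg over 18417 genes, is under 0.05. Counts of genes whose arrays do not overlap were made on the normalized log2 values, and can differ from the intensities printed.

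TCF7L1 was read first, by a probe set that carries its symbol and was not shown to separate transgene from endogenous message. TCF7L1 gave 3718, 3878 and 3572 without treatment, 1275, 1542 and 1611 in PS medium, and 13100, 12433 and 2699 with Dox. Dox replicate 3 was thus far below the other Dox arrays, and below every untreated array. TCF7L1 was called higher with Dox than in PS medium (log2 2.39, SE 0.47, adjusted p = 0.00464). Against untreated cells it was not called (log2 1.04, SE 0.47, adjusted p = 0.124). Of 10 stem cell marker genes 8 were measured, and their mean log2 level ran from 11.38 to 11.55 over untreated arrays, 10.82 to 11.15 in PS medium and 11.37 to 11.44 with Dox. The 10 streak markers ran from 7.83 to 7.86, 10.57 to 10.79 and 9.27 to 9.58 in the same order, and 8 measured amnion and trophectoderm markers from 6.90 to 7.03, 8.88 to 8.92 and 9.97 to 10.43. In PS medium against untreated cells, 4 amnion and trophectoderm markers were called higher and 2 lower. Of the stem cell markers 1 was called higher and 6 lower, and all 10 streak markers were called higher. The shares of all genes were 14.2% higher and 15.7% lower. With Dox against untreated cells, 2 stem cell markers were called higher, GDF3 (log2 0.97) and EPCAM (0.31). Another 2 were called lower, TERF1 (-0.85) and DNMT3B (-0.57), so a similar mean level does not show that each marker was alike. The shares of all genes there were 15.3% higher and 14.9% lower. Mean levels of both sets of lineage markers thus moved with the groups compared below, though not every marker went the same way. Their part in the results was not tested. In these bulk samples, fewer cells of a type and less RNA per cell cannot be told apart.

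**Figure D1:**
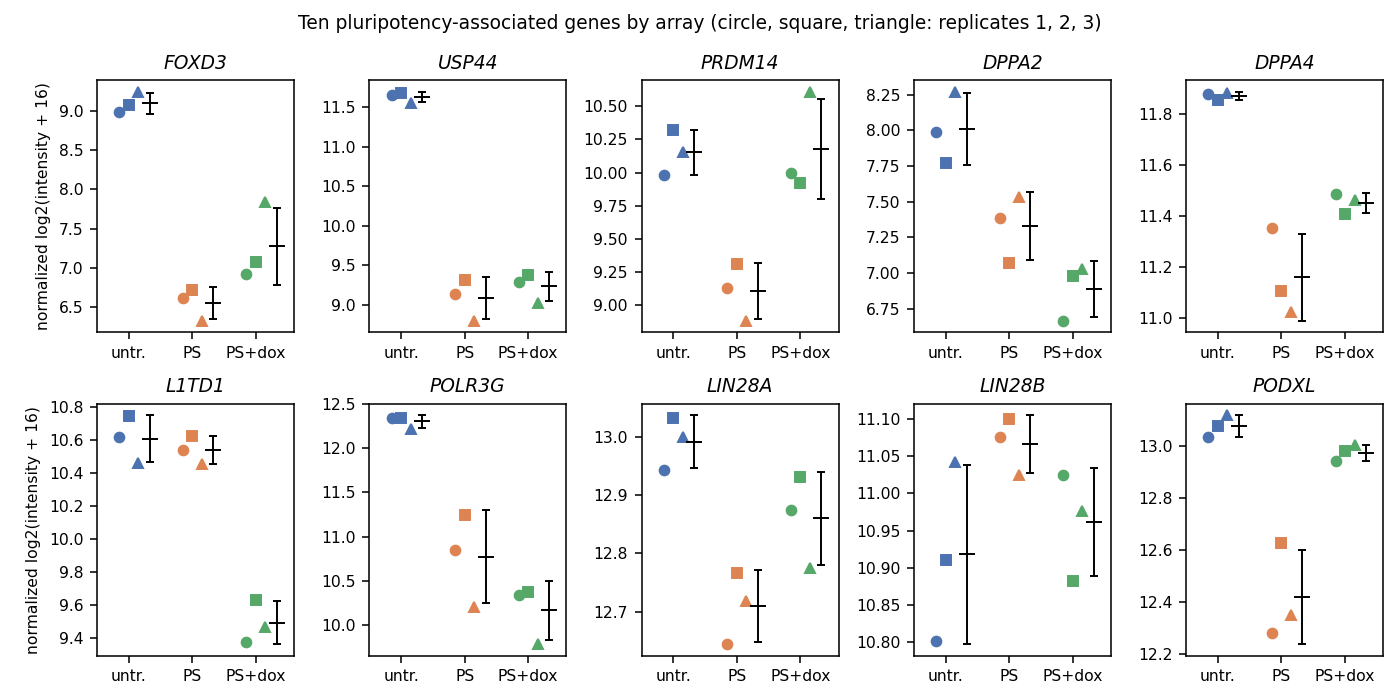
Normalized log2(intensity + 16) of the 10 genes, 1 panel per gene, for untreated cells, PS medium and PS medium with Dox. Symbols are the 3 arrays of a group and black bars the mean and SD; the vertical scale differs between panels. L1TD1 is the panel in which untreated and PS arrays lie together and the Dox arrays lie about 1 log2 unit lower.

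In PS medium 8 of the 10 genes fell against untreated cells and none rose, whereas 15.7% of all genes were called lower and 14.2% higher. On the normalized scale, arrays of the 2 groups did not overlap for the same 8 genes, against 43.3% of all genes. LIN28B overlapped on that scale, though as deposited its highest untreated array (2061) lay below its lowest PS array (2106). The median difference of the 10 was -0.70, against -0.01 over all genes. These 8 calls held under every alternative run (19 per gene, listed with the processing).

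FOXD3 and USP44 fell furthest, followed by POLR3G and PRDM14. FOXD3, a forkhead repressor also used by the neural crest, gave 484, 516 and 578 without treatment against 84.4, 87.1 and 62.3 in PS medium. Every PS array lay far below every untreated array, a 5.84-fold fall (log2 -2.55, SE 0.21, adjusted p = 6.34e-06).

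USP44 gave 3234, 3236 and 2971 without treatment against 539.8, 622 and 437 in PS medium. The groups stood far apart, and the fall was 5.82-fold (log2 -2.54, SE 0.13, adjusted p = 2.25e-07).

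PRDM14, a PR-domain factor that represses lineage genes through Polycomb, gave 978, 1267 and 1095 without treatment against 533, 617 and 462 in PS medium. It was 2.07-fold lower (log2 -1.05, SE 0.18, adjusted p = 0.00109), and the lowest untreated array lay above the highest PS array.

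POLR3G gave 5216, 5149 and 4722 without treatment against 1827, 2469 and 1185 in PS medium. The PS arrays were widely spread, the most among the 10 genes in this group (log2 SD 0.52), and all lay well below untreated cells. The fall was 2.89-fold (log2 -1.53, SE 0.23, adjusted p = 0.000476).

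DPPA4, DPPA2 and PODXL fell by less. DPPA4 gave 3773, 3661 and 3727 in untreated cells, the tightest group of the 10 genes (log2 SD 0.02), and 2639, 2220.0 and 2107 in PS medium (log2 -0.71, SE 0.08, adjusted p = 4.38e-05). DPPA2 gave 243, 200.5 and 296 without treatment against 155, 115 and 168 in PS medium (log2 -0.68, SE 0.16, adjusted p = 0.00731). DPPA2 was thus near or below the array median throughout, so that the added 16 takes more off its change than off that of DPPA4. PODXL gave 8457, 8552 and 8780.5 without treatment against 5069.9, 6442 and 5182 in PS medium (log2 -0.66, SE 0.07, adjusted p = 6.88e-05).

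The 2 LIN28 genes and L1TD1 had the smallest differences of the set. LIN28A gave 7865, 8322 and 8108 without treatment against 6532, 7031 and 6720.3 in PS medium, a 1.22-fold fall that passed the test (log2 -0.28, SE 0.05, adjusted p = 0.00152). Its other probe set gave 2219, 2269.8 and 2196 against 1566, 1676 and 1476, and a larger difference of -0.52 (adjusted p = 8.26e-05). LIN28B gave 1738, 1910.1 and 2061 without treatment against 2150.3, 2212 and 2106 in PS medium, with a difference of 0.15 (95% interval -0.01 to 0.30, adjusted p = 0.147). L1TD1 gave 1534, 1699.8 and 1361 without treatment against 1478, 1584 and 1418 in PS medium. Its groups overlapped, and the difference of -0.07 (95% interval -0.27 to 0.14, adjusted p = 0.653) changed sign with median centring (0.0033).

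**Figure D2:**
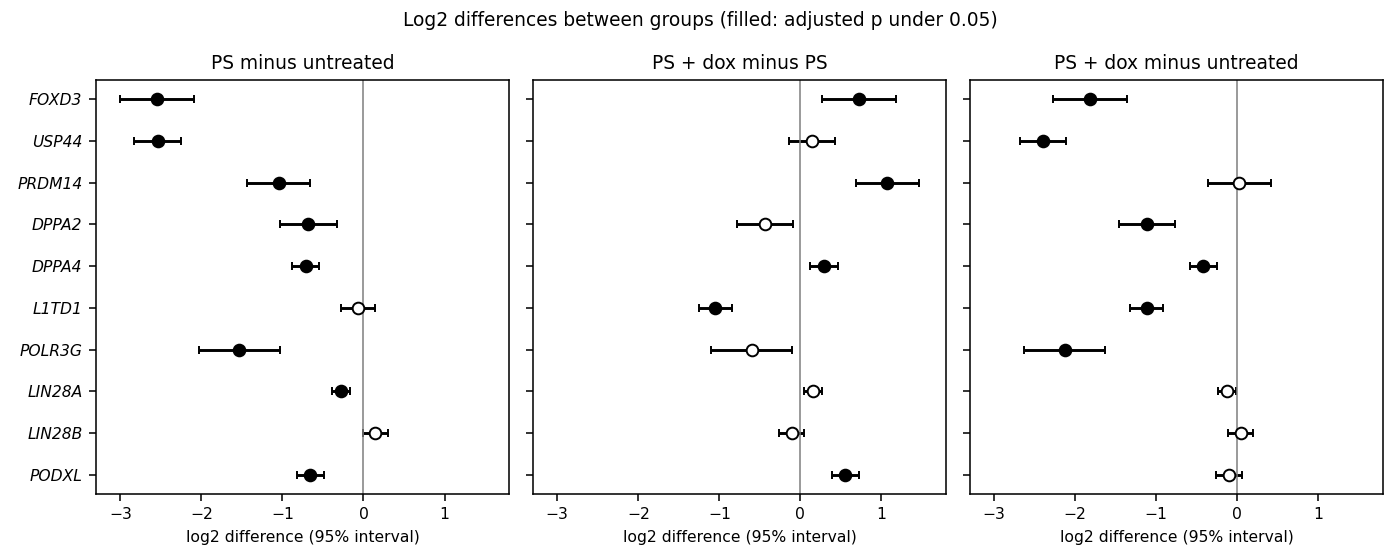
Log2 differences between groups for the 10 genes in 3 comparisons, with 95% intervals from the limma fit of 9 arrays; filled points have an adjusted p under 0.05. In the middle panel FOXD3, PRDM14, DPPA4 and PODXL are filled above 0 and L1TD1 is filled below 0.

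Cells given Dox in PS medium were then compared with cells in PS medium alone, a comparison in which effects of Dox and of TCF7L1 cannot be told apart. With Dox 4 of the 10 genes were higher and 1 was lower, against 8.91% and 8.44% of all genes called higher and lower. On the normalized scale arrays did not overlap for 7 of the 10 genes, against 30.9% of all genes. DPPA2 and LIN28A were among the 7 by small gaps. As deposited their arrays overlapped, with 115.96 (Dox) against 115.46 (PS medium) for DPPA2 and 6922 against 7031 for LIN28A. With the replicate number as a block 8 were called, 5 higher and 3 lower, and 3 were called when untreated arrays were left out of the fit.

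L1TD1 gave 654, 794 and 693 with Dox, each less than the lowest of the 6 arrays without it. It fell 2.07-fold against PS medium (log2 -1.05, SE 0.09, adjusted p = 2.85e-05) and 2.17-fold against untreated cells (log2 -1.12, SE 0.09, adjusted p = 7.63e-06). Dox replicate 3, with the least TCF7L1 of the Dox arrays though more than any PS array, was as low as the others, and the fall was called in each of the 19 alternatives for either comparison (from -1.12 upwards to -0.997 on the log2 scale against PS medium).

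PRDM14 gave 1006, 974 and 1546 with Dox. All 3 lay above the PS arrays, with replicate 3 the highest, and the rise was 2.10-fold (log2 1.07, SE 0.18, adjusted p = 0.00168). Without replicate 3 of the Dox group the rise was smaller and still called (lowest value over all alternatives 0.85). Against untreated cells the difference was 0.02 (95% interval -0.37 to 0.41, adjusted p = 0.942).

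PODXL gave 7758, 8049 and 8139.7 with Dox, above every PS array and below every untreated array. It rose 1.47-fold against PS medium (log2 0.55, SE 0.07, adjusted p = 0.000451), and its difference from untreated cells was -0.10 (95% interval -0.27 to 0.06, adjusted p = 0.349).

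FOXD3 gave 106, 111 and 214 with Dox, where replicate 3 was the highest. The 1.65-fold rise (log2 0.72, SE 0.21, adjusted p = 0.0338) was 0.44 without Dox replicate 3 (adjusted p = 0.0461). That call was lost without untreated replicate 1 (0.0521) or 2 (0.0520), without PS replicate 1 (0.0723) or 3 (0.0971), and when all untreated arrays were left out (0.0774). FOXD3 stayed 3.54-fold below untreated cells (log2 -1.82, SE 0.21, adjusted p = 7.48e-05).

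DPPA4 gave 2818, 2687 and 2789.6 with Dox, between the other groups without overlap. The rise over PS medium was small (log2 0.29, SE 0.08, adjusted p = 0.0217) and was lost without PS replicate 2 (0.0672) or 3 (0.0615), without Dox replicate 1 (0.0774) or 3 (0.0526), and when all untreated arrays were left out (0.0686). DPPA4 remained lower than in untreated cells (log2 -0.42, SE 0.08, adjusted p = 0.00169).

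DPPA2, its neighbour on the chromosome, gave 86.2, 103 and 116 with Dox. The difference from PS medium was -0.44 (SE 0.16, adjusted p = 0.0831), which passed without PS replicate 2 (-0.57, adjusted p = 0.0346) and with the replicate block (adjusted p = 0.0243). Against untreated cells DPPA2 fell 2.17-fold (log2 -1.12, SE 0.16, adjusted p = 0.000333).

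USP44 gave 619.6, 666 and 507 with Dox, overlapping the PS arrays. The difference of 0.15 (95% interval -0.14 to 0.43) had an adjusted p of 0.526, and USP44 stayed 5.26-fold below untreated cells (log2 -2.39, SE 0.13, adjusted p = 3.74e-07).

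POLR3G gave 1278, 1335 and 867 with Dox. It differed from PS medium by -0.60 (SE 0.23, adjusted p = 0.103), by -0.88 without PS replicate 3 (adjusted p = 0.00537), by -0.36 without PS replicate 2 (adjusted p = 0.292) and by -0.41 without Dox replicate 3 (adjusted p = 0.283). With the replicate block the adjusted p was 0.00995. Against untreated cells the fall was 4.38-fold (log2 -2.13, SE 0.23, adjusted p = 4.89e-05).

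LIN28A gave 7375, 7761 and 6922 with Dox and differed from PS medium by 0.15 (SE 0.05, adjusted p = 0.0654). That difference passed without Dox replicate 3 (0.19, adjusted p = 0.0238), with the replicate block (adjusted p = 0.0208) and on the other probe set (0.21, adjusted p = 0.0374), which gave 1799.9, 1868 and 1741. Against untreated cells LIN28A differed by -0.13 (adjusted p = 0.0712), which passed without Dox replicate 2 (adjusted p = 0.0438), with the replicate block (0.0248) and on the other probe set (-0.31, adjusted p = 0.00259). LIN28B gave 2038, 1904 and 1995 with Dox, with a difference of -0.11 from PS medium (95% interval -0.26 to 0.05, adjusted p = 0.381) and of 0.04 from untreated cells (95% interval -0.11 to 0.20, adjusted p = 0.707).

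Against untreated cells, 6 of the 10 genes were lower with Dox and none was higher, beside 14.9% and 15.3% of all genes. Arrays did not overlap for 8 of the 10, beside 45.0% of all genes. The 4 that were not called were PRDM14, PODXL, LIN28A and LIN28B. This comparison shares its untreated arrays with that of PS medium alone and its Dox arrays with the comparison of Dox and PS medium.

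The order of mean levels for FOXD3, USP44, DPPA4, LIN28A and PODXL was untreated, Dox, PS medium. Neighbours in that order were not called apart for USP44 (Dox and PS medium), PODXL (untreated and Dox) and LIN28A (both steps). For DPPA2, L1TD1 and POLR3G the order was untreated, PS medium, Dox, and neighbours were not called apart for L1TD1 at the first step and for DPPA2 and POLR3G at the last. With the replicate block these steps of DPPA2 and POLR3G, and both steps of LIN28A, were called apart (adjusted p = 0.0243, 0.00995, 0.0208 and 0.0248). PRDM14 was highest with Dox by 0.02, an order that turned without Dox replicate 3 (-0.19), and LIN28B was highest in PS medium with no called difference.

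**Figure D3:**
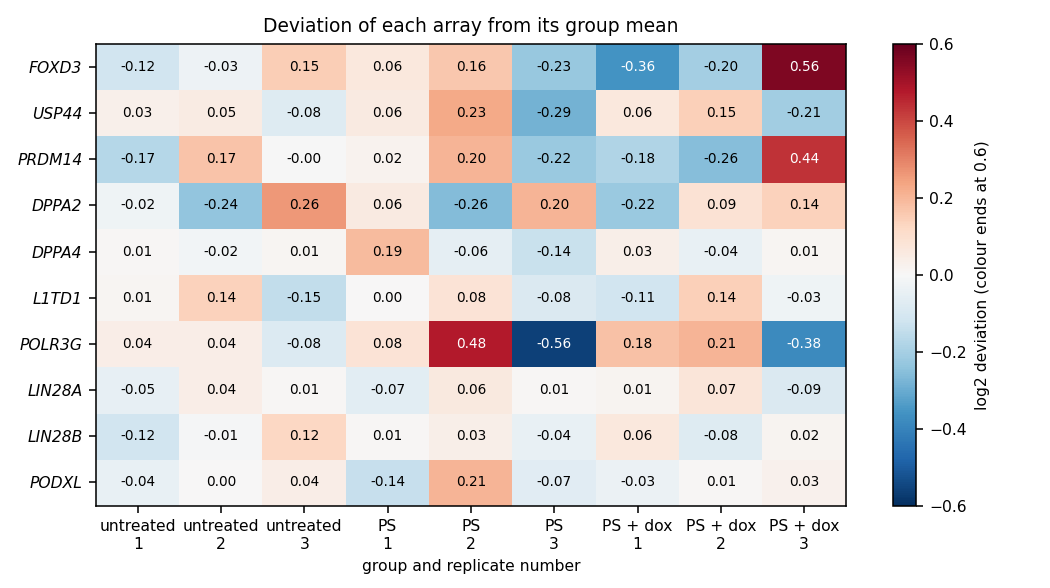
Deviation of each array from its group mean, in log2 units, for the 10 genes (rows) and 9 arrays (columns). Dox replicate 3 is high for FOXD3 (0.56) and PRDM14 (0.44) and low for POLR3G (-0.38), and PS replicates 2 and 3 lie on opposite sides for POLR3G (0.48 and -0.56).

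Dox replicate 3, whose TCF7L1 signal was 2699 against 13100 and 12433, differed from the mean of the other 2 Dox arrays by 0.84 for FOXD3, 0.65 for PRDM14 and -0.57 for POLR3G. These 3 of 10 genes were over 0.5 apart there, against 3.34% of all genes. The median absolute difference was 0.17 over the 10 genes and 0.11 over all genes. For L1TD1 (-0.04), PODXL (0.04), DPPA4 (0.01) and LIN28B (0.02) this array lay close to the others. With 1 such array, the relation to the TCF7L1 level was not tested. In PS medium replicate 3 was low for POLR3G (-0.84), USP44 (-0.43), FOXD3 (-0.34) and PRDM14 (-0.34), and SOX2 there gave 579 against 867 and 974.

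Pairs of related genes were compared for how much they changed, by an exact two-sided permutation test of the within-array difference, in 9 tests whose smallest possible p is 0.10. The change of LIN28A less that of LIN28B was -0.43 in PS medium (pooled SD 0.08, exact p = 0.10, adjusted 0.15) and 0.26 with Dox against PS medium (pooled SD 0.11, exact p = 0.10, adjusted 0.15). For DPPA2 less DPPA4 the difference in PS medium was 0.03 (pooled SD 0.27, exact p = 0.90). With Dox against PS medium it was -0.73 (pooled SD 0.26, exact p = 0.10, adjusted 0.15), DPPA2 going from 7.33 to 6.89 and DPPA4 from 11.16 to 11.45 in mean log2 level. For POLR3G less POLR3GL the difference in PS medium was -2.08 (pooled SD 0.63, exact p = 0.10, adjusted 0.15), without overlap of arrays. With Dox against PS medium the difference was -0.39 (pooled SD 0.71, exact p = 0.50).

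The genes around these 10 were read from lists of their partners and relatives. Of 25 measured other pluripotency-associated genes, 15 fell and 5 rose in PS medium (median -0.49), beside 15.7% and 14.2% of all genes. SOX2 fell most (log2 -2.43), while NODAL (2.13) and LEFTY1 (2.05), ligand and antagonist of the Nodal pathway, rose. With Dox 4 rose and 9 fell against PS medium (median 0.02), beside 8.91% and 8.44% of all genes. SOX2 rose by 2.18, and OTX2, a homeobox factor, fell by 1.55 on the log2 scale, as did LEFTY1 by 1.45. LEFTY1 has a near-identical neighbour, LEFTY2, so its value is uncertain.

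Among 28 RNA polymerase III subunits and factors, 4 rose and 2 fell in PS medium, near or below the shares of all genes (14.2% and 15.7%). The median was -0.0047. The 6 calls were 2 without untreated replicate 1 and 3 without untreated replicate 2. POLR3GL, the paralog, gave 53.9, 55.4 and 65.6 without treatment against 85.7, 69.8 and 122 in PS medium, a dim signal that rose by 0.55 (SE 0.16, adjusted p = 0.0233). SNAPC3, of the snRNA-activating complex, rose by 0.56, and POLR3E, a further subunit, fell by 0.50 on the log2 scale. With Dox 1 gene of the list was called, SNAPC1, which fell by 0.95, beside 8.44% of all genes called lower. With the replicate block 4 genes of the list were called.

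The LIN28 and let-7 list had 21 measured genes, of which 4 rose and 4 fell in PS medium, beside 14.2% and 15.7% of all genes. IGF2BP3, an RNA-binding protein and let-7 target, fell by 0.67, MYCN by 0.57, and CCND1, cyclin D1, rose by 0.67. With Dox 1 rose and 4 fell, beside 8.91% and 8.44% of all genes (5 called, 2 without Dox replicate 1, 3 without untreated replicate 2, PS replicate 1 or 3 or Dox replicate 2, and 7 with the replicate block), led by MYC (-0.78), E2F2 (0.62) and CCND2 (-0.43). The let-7 genes themselves, added after the values were seen, were on 11 symbols, including the host gene MIRLET7BHG. Their probe sets cannot separate a hairpin from its host transcript or report the mature form. The mature forms share 1 seed, the stretch that pairs with targets, shown for let-7a, after which the family is often described, and for the 2 genes that were called (RefSeq, GRCh38.p14, capitals are bases 2 to 8).

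hsa-let-7a-5p: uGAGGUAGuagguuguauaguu

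hsa-let-7g-5p: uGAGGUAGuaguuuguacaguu

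hsa-let-7i-5p: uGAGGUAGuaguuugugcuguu

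The MIRLET7I probe set rose in PS medium by 0.77 (SE 0.10, adjusted p = 0.000215) and fell with Dox by 0.83 (SE 0.10, adjusted p = 0.00026). MIRLET7G rose with Dox by 0.47 (SE 0.14, adjusted p = 0.0452). The other 10 symbols in PS medium, and the other 9 with Dox, were not called. Of all genes 14.2% were called higher and 15.7% lower in PS medium, and 8.91% and 8.44% with Dox.

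Of 16 measured genes of the podocalyxin family and its cortical linkers, 5 rose and 3 fell in PS medium, beside 14.2% and 15.7% of all genes. PODXL2, endoglycan, fell by 0.83 (SE 0.08, adjusted p = 3.46e-05), and SYTL2, a vesicle-trafficking protein, fell by 0.88. RDX, radixin, which ties membrane proteins to actin, rose by 0.67. With Dox 2 rose and 4 fell, beside 8.91% and 8.44% of all genes. PALS1, a polarity scaffold, rose by 0.67, while MSN, moesin, fell by 0.63 and NHERF1, a scaffold that binds PODXL, by 0.54. With Dox PODXL2 differed from PS medium by -0.11 (adjusted p = 0.437); its contrast with PODXL was not tested.

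A list of 23 genes held PRDM14 partners, members of Polycomb repressive complex 2, and others outside that complex, such as PRDM1, TFAP2C and TET2. Of these 23 genes, 4 rose and 7 fell in PS medium, beside 14.2% and 15.7% of all genes. EZH2, SUZ12 and EED, members of the complex, were not called in PS medium against untreated cells or with Dox against PS medium. With Dox 5 rose and 2 fell, beside 8.91% and 8.44% of all genes. PRDM1, a PR-domain relative, rose by 4.85 in PS medium and fell by 1.75 with Dox. TFAP2C, an AP-2 factor, rose by 1.60 in PS medium and by a further 1.47 with Dox. TET2, a DNA demethylase, rose by 1.09 in PS medium, and PHF19, a Polycomb accessory protein, rose by 0.80 with Dox.

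Of 18 germ line and early embryo genes, 5 rose and 2 fell in PS medium, beside 14.2% and 15.7% of all genes. With Dox 3 rose and 4 fell, beside 8.91% and 8.44% of all genes. DAZL, a germ cell RNA-binding protein, fell by 2.40 in PS medium (SE 0.13, adjusted p = 3.94e-07), and SOX17, a factor of endoderm and germ cells, rose by 3.95. TFCP2L1, a factor of naive pluripotency, rose by 1.83 with Dox, when SOX17 fell by 1.97.

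FOXD relatives and neural crest genes numbered 18, of which 5 rose and 4 fell in PS medium, beside 14.2% and 15.7% of all genes. The largest changes were those of TFAP2A (5.28), MSX2 (5.04) and SNAI2 (2.83), while SOX9 fell by 1.44. FOXD1, FOXD2, SOX10, PAX3, PAX7 and TFAP2B were not called. TFAP2A is also among the amnion and trophectoderm markers above. With Dox 4 rose and 3 fell, beside 8.91% and 8.44% of all genes, with SOX9 1.24 and TFAP2A 1.17 higher and SNAI2 lower by 1.27. Of 22 USP44 partners and mitotic checkpoint genes, 6 rose and 5 fell in PS medium, beside 14.2% and 15.7% of all genes (11 called, 7 without PS replicate 2), led by USP22, a related deubiquitinase (0.67), TBL1XR1 (0.59) and UBE2B (0.43). With Dox 2 fell, beside 8.44% of all genes, USP22 by 0.41 and MAD2L1, a checkpoint protein, by 0.28, and 4 were called with the replicate block.

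**Figure D4:**
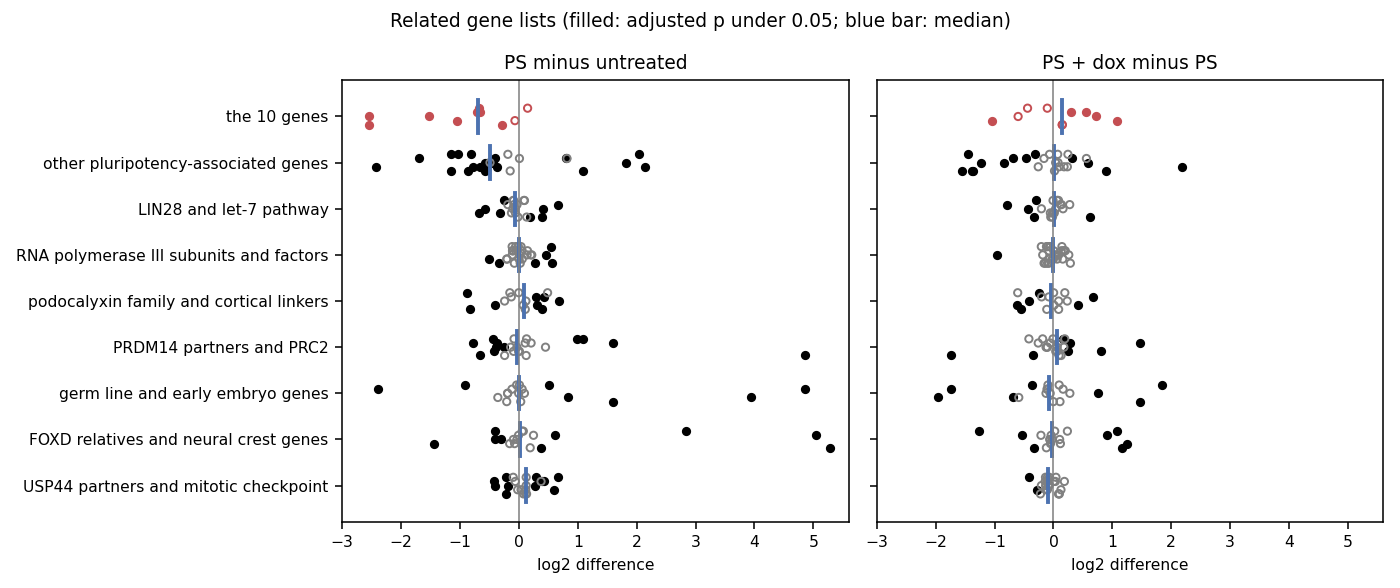
Log2 differences of the 10 genes (red) and of genes of 8 related lists (black) in PS medium against untreated cells and with Dox against PS medium. Filled points have an adjusted p under 0.05 and blue bars are medians; the 10 genes have the lowest median on the left (-0.70) and medians on the right lie between -0.09 and 0.15.

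The genes whose values over the 9 arrays were closest to each member, by root mean square (RMS) difference of mean-centred log2 values, were read as a description. L1TD1 was nearest to SHF, an adaptor protein (0.09), and IGFBP4, an IGF-binding protein (0.13). PRDM14 was nearest to SLC15A1, a peptide transporter, and GPC3, a glypican (both 0.10), and PODXL to CPVL and RAB11FIP1 (both 0.07). USP44 was nearest to GDPD2 (0.15) and DAZL (0.16), FOXD3 to CNMD and CCBE1 (both 0.22), and POLR3G to PTPRZ1, a receptor phosphatase (0.14), and SLC18A2, a monoamine transporter (0.17). DPPA4 was nearest to ANO5 (0.07) and CARMIL1 (0.08), and DPPA2 to DDX60 (0.12) and CACNG7 (0.13). LIN28A lay by FCRL5 and ARMC8 (both 0.03) and LIN28B by WDR64 and H1-10 (both 0.04). The values were not scaled, so genes that change little lie close to each other whatever their pattern. These distances therefore do not rank likeness between members.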

How the data were processed

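RNA of 9 samples was measured on Affymetrix whole-transcript arrays. The authors deposited 1 linear intensity for each probe set, made with Affymetrix Expression Console 1.1.1 and PLIER 2.0 per the submitters' processing notes; how background was corrected and arrays were normalized is not given there.

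Probe sets with 1 symbol (19460 of 33297) took current symbols by gene number from GRCh38.p14 (19429 matched). Values were converted to log2(value + 16) and, as array medians spanned 0.10, quantile-normalized over all probe sets. Each gene was represented by its brightest probe set. limma 3.58.1 (R 4.3.3; lmFit, eBayes with a trend, 6 residual degrees of freedom) fitted 1 mean per group over 18417 genes; the procedure was tested on simulated data. Figures used matplotlib 3.10.9.

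Genes named were all 10 members, TCF7L1, SOX2, up to 3 called genes with the largest change per list and comparison, and the 2 nearest genes. Further genes of the neural crest, Polycomb and stem cell marker lists were named where members differed from these. The members and lists were chosen with earlier results of these data known.

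Same-numbered arrays had deviations correlated over genes at 0.245, 0.428 and 0.246 (Dox and PS medium), 0.246, 0.309 and 0.297 (Dox and untreated) and 0.0857, 0.397 and 0.271 (PS medium and untreated). These values come from the data, and the labels do not say that the numbers pair samples. The main fit therefore used no block, and its SEs and p-values ignore any such pairing. The replicate block, over all 3 groups, was run as an alternative. Since no label calls the replicates separate cultures, the p-values cover no more than the scatter among these arrays, which may be technical.

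Alternatives were values as deposited, median centring, offsets of 1 and 64, a filter on the dimmest genes, all probe sets, a fit of the groups compared only, eBayes without a trend, the replicate block and each array left out. LIN28A by its other probe set was added after seeing the data. The number of arrays limits the precision.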

Additional observations from a re-analysis of the deposited data

How the results depend on the processing

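Over 19 alternatives for each of 10 genes in 3 comparisons, 545 of 570 differences kept their direction and side of the threshold, 10 lost a call, 10 gained one and 5 changed sign. The number of the 10 genes called in PS medium with Dox against PS medium, 5, was 8 with the replicate block. It was 3 when untreated arrays were left out of the fit, which has fewer arrays. Over all genes 3195 were called in that comparison, and 4481 with the block. For the block the cause was not tested. The block changed no other call of the 10 genes than those of DPPA2, POLR3G and LIN28A. The sign changes were all in differences that were not called: L1TD1 in PS medium against untreated cells was 0.0033 with median centring and ran from -0.14 to 0.0016 with 1 array left out. PRDM14 with Dox against untreated cells ran from -0.19 to 0.15, and LIN28B from -0.016 to 0.10, with 1 array left out.

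Counts called in related lists moved by over 1.5 times under at least 1 alternative for the RNA polymerase III list (6 in PS medium against untreated cells, from 2 to 9; 1 with Dox against PS medium, from 1 to 4; 5 with Dox against untreated cells, from 1 to 13). The LIN28 and let-7 list moved with Dox against PS medium (5, from 2 to 7), and the PRDM14 list with Dox against untreated cells (10, from 9 to 16). The USP44 list moved in all 3 (11, from 7 to 12; 2, from 1 to 4; 13, from 6 to 15, in the same order). The highest of each was with the replicate block. That block also raised the calls over all genes (5495 to 6935, 3195 to 4481 and 5572 to 7055, in the same order). Signal limits DPPA2, FOXD3 and POLR3GL most, which lie near or below the array median in some groups.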
